A study of Mus musculus with 6 samples.

Results

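Transcripts of 9 regulators of endothelial identity were followed in hearts taken whole from embryonic day 11.5 mice: the ETS-family genes Erg, Fli1, Ets1, Ets2 and Elk3, and Tal1, Lmo2, Gata2 and Hhex. They were taken by symbol from a table of 38918 genes, and each of the 9 symbols matched exactly 1 row. The conditional knockout embryos carried 2 floxed alleles of Tek, which encodes the angiopoietin receptor Tie2, together with a Cre recombinase named for Nfatc1, a gene of the endocardium. Their littermate controls carried 1 floxed and 1 wild-type Tek allele, and their labels mention no Cre, so loss of Tek and presence of Cre cannot be told apart. All embryos were on the strain background given as C57/BL6, and there were 3 libraries for each genotype. The series text describes RNA of 18 hearts per genotype being pooled before it was divided into replicates, yet hepatocyte and Y-linked transcripts differed between libraries of 1 genotype (values below), so how many hearts stand behind each library is unclear. P-values therefore measure only the spread between libraries, which may be technical.

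ETS factors share a DNA-binding domain that recognises a GGAA core, and many endothelial enhancers carry such sites. Erg and Fli1 are close relatives that maintain endothelial genes, while Ets1 and Ets2 respond to growth factor signalling through MAP kinases and Elk3 belongs to the subfamily that works with serum response factor. Tal1, a basic helix-loop-helix factor, binds E-box and GATA elements in a complex held together by the bridging protein Lmo2, with Gata2 in endothelium and early progenitors and Gata1 in red cells. Hhex is a homeobox repressor that is made in early endothelium and blood precursors and also in the liver bud.

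Of these genes, 4 sit in 2 divergent pairs of ETS paralogs. On chromosome 16 (GRCm38), Erg runs on the minus strand from 95359169 to 95586593 and Ets2 on the plus strand from 95702075 to 95721051, 115.5 kb apart, with 0 annotated genes between them. On chromosome 9, Fli1 runs on the minus strand from 32422204 to 32542861 and Ets1 on the plus strand from 32636221 to 32757820, 93.4 kb apart, with 0 protein-coding genes between them. The others lie apart, Elk3 on chromosome 10 from 93247414 to 93311135, Tal1 on chromosome 4 from 115056426 to 115071755, Lmo2 on chromosome 2 from 103957986 to 103981878, Gata2 on chromosome 6 from 88193891 to 88207032 and Hhex on chromosome 19 from 37434810 to 37440731. All 9 are protein coding. Elk3 shares 316 exonic bases with Cdk17 on the opposite strand, and because no source used here gives the strand setting of the counting, reads from that stretch could have gone to either gene. Cdk17 stood at 12.9 ± 0.623 FPKM in conditional knockout hearts and 11.98 ± 0.762 FPKM in control hearts (SD, n = 3 each).

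Start-site windows of 300 bases, reaching from 250 bases before to 50 after an annotated start, were available from RefSeq (GRCm38.p6) for 6 of the 9 genes, as 10 windows. Those of Gata2, Ets2 and Elk3 are shown because these genes had the lowest fold changes among those with a window, and 1 of Tal1 because it held the most GATA matches. Capitals mark GGAA and GATA on either strand, so TTCC and TATC are the same matches read on the other strand. The first Gata2 window lies at chr6:88193641-88193940 and the second at chr6:88198414-88198713, both on the plus strand. The Ets2 window is chr16:95702157-95702456 on the plus strand, the Elk3 window chr10:93311110-93311409 on the minus strand and the Tal1 window chr4:115056176-115056475 on the plus strand.
Gata2, first start: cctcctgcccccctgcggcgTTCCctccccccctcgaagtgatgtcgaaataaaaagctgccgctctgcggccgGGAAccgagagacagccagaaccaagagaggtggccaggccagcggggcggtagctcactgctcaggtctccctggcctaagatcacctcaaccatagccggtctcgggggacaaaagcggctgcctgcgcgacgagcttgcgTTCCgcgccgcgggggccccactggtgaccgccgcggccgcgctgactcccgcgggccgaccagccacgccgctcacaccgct
Gata2, second start: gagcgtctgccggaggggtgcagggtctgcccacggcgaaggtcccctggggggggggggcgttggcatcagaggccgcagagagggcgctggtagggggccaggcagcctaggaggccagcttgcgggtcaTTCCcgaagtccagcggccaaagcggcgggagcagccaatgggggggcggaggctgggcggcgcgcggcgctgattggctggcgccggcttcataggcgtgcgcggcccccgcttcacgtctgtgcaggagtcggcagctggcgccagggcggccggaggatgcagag
Ets2: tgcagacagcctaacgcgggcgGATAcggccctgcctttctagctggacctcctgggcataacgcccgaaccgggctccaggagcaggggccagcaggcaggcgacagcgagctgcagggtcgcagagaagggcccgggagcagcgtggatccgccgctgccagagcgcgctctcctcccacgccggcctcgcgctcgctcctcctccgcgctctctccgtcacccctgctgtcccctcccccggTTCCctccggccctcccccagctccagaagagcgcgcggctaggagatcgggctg
Elk3: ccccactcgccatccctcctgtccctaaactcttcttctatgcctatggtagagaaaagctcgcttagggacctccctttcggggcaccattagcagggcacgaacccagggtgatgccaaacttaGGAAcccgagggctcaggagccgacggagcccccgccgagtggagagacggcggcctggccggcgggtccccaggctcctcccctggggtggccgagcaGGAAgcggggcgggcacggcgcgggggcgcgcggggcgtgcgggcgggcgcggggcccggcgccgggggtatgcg
Tal1, first start: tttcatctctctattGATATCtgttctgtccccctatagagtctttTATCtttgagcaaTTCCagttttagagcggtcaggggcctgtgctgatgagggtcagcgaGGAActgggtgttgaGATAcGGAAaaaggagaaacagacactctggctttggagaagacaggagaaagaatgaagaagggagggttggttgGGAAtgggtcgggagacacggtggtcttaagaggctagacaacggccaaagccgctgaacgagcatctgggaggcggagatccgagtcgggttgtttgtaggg

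The 4-base ETS core GGAA was found in 10 of the 10 windows, but also in 96.0% of 32851 such windows over all genes, so its presence marks nothing out. GATA was found in 5 of the 10 windows (57.9% of all windows). The Tal1 window held 4 GATA matches, 2 of them overlapping on opposite strands, and 4 GGAA matches. The E-box CANNTG was found in 3 of 10 windows (72.3% of all windows). The longer ETS form CCGGAA, which contains GGAA, was found in 0 of the 10 (14.9% of all windows). These matches describe letters in a window and were not tied to binding.

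The libraries were checked through Tek and through tissue markers. Tek stood at 3.38, 3.13 and 3.13 FPKM (fragments scaled by transcript length and mapped library size) in conditional knockout hearts, against 22.4, 25.7 and 16.6 FPKM in control hearts (log2 fold change -2.40 ± 0.15 SE, limma adjusted p = 0.00131, and 0.05465 within replicates 2 and 3 alone). The cardiomyocyte genes Tnnt2 and Actc1 were abundant in both groups, at 1870 and 5182 FPKM in conditional knockout hearts and 2030 and 6191 FPKM in control hearts. FPKM summed to between 481334 and 582261 per library, and read depth is unknown. The test took in 12988 genes, those averaging 1 FPKM or more. Limma called 16 genes lower and 7 higher, 0.177% in all, and the median log2 fold change was -0.01. Among the 7 higher were the globin genes Hba-x and Hbb-y, listed at 0 in every control, where an exact 0 can be a failed estimate. Without any 1 library the lower calls numbered 4 to 9. Eif2s3y, a Y-linked gene that depends on the sex of the pooled embryos, ranged from 34.1 to 55.6 FPKM in conditional knockout hearts and from 17.7 to 40.96 FPKM in control hearts, and its part in the results was not tested. The 7 cardiomyocyte markers summed to 12980, 20410 and 18960 FPKM in conditional knockout hearts and to 18860, 20050 and 19230 FPKM in control hearts, so conditional knockout replicate 1 stood apart.

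All 9 regulators passed the filter on low values, and 0 of 9 passed the limma test at an adjusted p of 0.05, beside 0.177% of all genes tested. At an unadjusted p under 0.05, 4 of the 9 were lower in conditional knockout hearts (Gata2, Ets2, Elk3 and Ets1), beside 4.37% of all genes, and 0 were higher, beside 2.31% of all genes. In the same 4 genes every conditional knockout library lay below every control library, a pattern found in 8.17% of all genes. None had every conditional knockout library above every control (5.23% of all genes). The median log2 fold change of the 9 was -0.21, with 7 below 0 and 2 above.

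**Figure D1:**
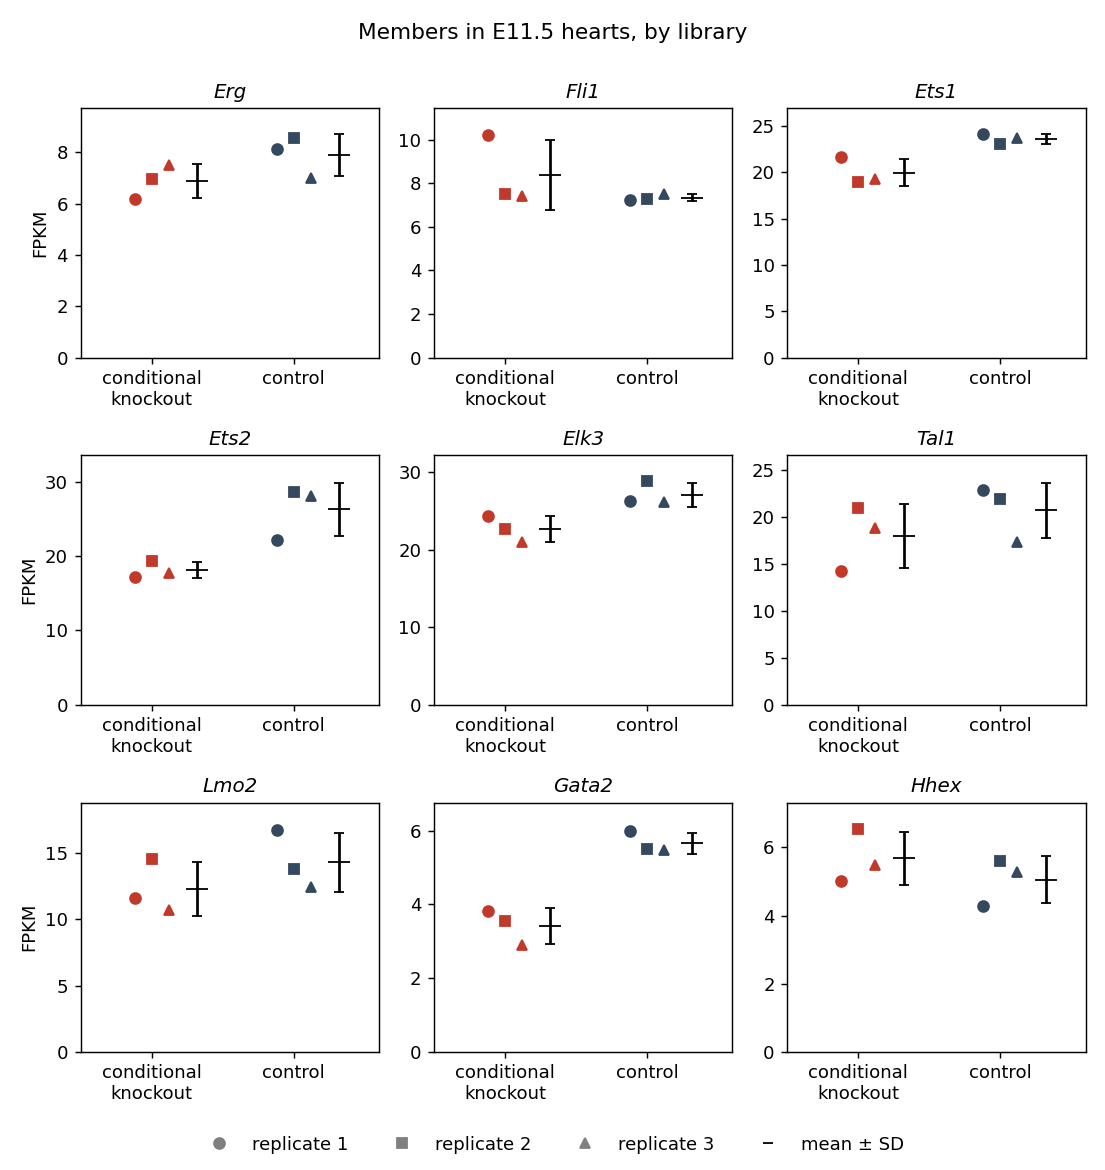
FPKM of each regulator by library, with conditional knockout hearts in red to the left of control hearts in dark blue, replicate number by marker shape, and the mean ± SD (n = 3) beside each group. The groups do not overlap for Ets1, Ets2, Elk3 and Gata2, and 1 conditional knockout library of Fli1, at 10.2 FPKM, stands above the other 5.

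In conditional knockout hearts the order of levels per length, from high to low, was Elk3, Ets1, Ets2, Tal1, Lmo2, Fli1, Erg, Hhex and Gata2, from a mean of 22.7 FPKM for Elk3 to 3.42 FPKM for Gata2. Neighbours in that order overlapped between libraries, except Lmo2 with Fli1 and Hhex with Gata2. In control hearts the order was Elk3, Ets2, Ets1, Tal1, Lmo2, Erg, Fli1, Gata2 and Hhex, from 27.1 FPKM for Elk3 to 5.05 FPKM for Hhex, and the neighbours that overlapped were Elk3 and Ets2, Ets2 and Ets1, Erg and Fli1, and Gata2 and Hhex. Ets1 with Ets2, Fli1 with Erg and Hhex with Gata2 therefore stood in opposite order in the genotypes, and Hhex with Gata2 were separated in conditional knockout hearts and overlapped in control hearts.

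Erg, an ETS factor of most endothelial cells, was measured at 6.17, 6.96 and 7.49 FPKM in conditional knockout hearts and at 8.13, 8.57 and 6.99 FPKM in control hearts. The lowest control lay inside the range of the conditional knockouts. The mean was 6.87 ± 0.667 FPKM in conditional knockouts and 7.90 ± 0.813 FPKM in controls (SD, n = 3 each), a log2 fold change of -0.18 ± 0.11 (SE, limma adjusted p = 0.808) with a 95% confidence interval from -0.44 to 0.09. The interval leaves room for a moderate decrease and for no difference.

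Fli1, its nearest relative, stood at 10.2, 7.498 and 7.40 FPKM in conditional knockout hearts and at 7.21, 7.29 and 7.52 FPKM in control hearts. Replicate 1 of the conditional knockouts was high and the other 5 libraries lay within a narrow band. Conditional knockouts exceeded controls by a log2 fold change of 0.16 ± 0.13 (SE, limma adjusted p = 0.824), with an interval from -0.15 to 0.46, and without that library it was 0.02. The other conditional knockout libraries lay inside the range of the controls. Replicate 1 was also the conditional knockout library with the lowest cardiomyocyte sum (12980 FPKM) and the lowest sum of erythroid markers other than globins (309.8 FPKM), and the part of either in its Fli1 value was not tested.

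Ets1 stood at 21.7, 19.0 and 19.2 FPKM in conditional knockout hearts and at 24.2, 23.1 and 23.7 FPKM in control hearts. The groups did not overlap, and the control libraries were close together. The mean was 15.5% lower in conditional knockouts, a log2 fold change of -0.23 ± 0.09 (SE, limma unadjusted p = 0.0389, adjusted p = 0.742).

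Ets2 had the lowest fold change of the ETS genes. It stood at 17.2, 19.3 and 17.8 FPKM in conditional knockout hearts and at 22.2, 28.6 and 28.1 FPKM in control hearts. Every conditional knockout lay below every control, and control replicate 1 was the nearest to them. The mean was 18.1 ± 1.07 FPKM in conditional knockouts and 26.3 ± 3.55 FPKM in controls (SD, n = 3 each), 31.1% lower, with a log2 fold change of -0.51 ± 0.12 (SE, limma unadjusted p = 0.00378, adjusted p = 0.374). The 95% interval ran from -0.79 to -0.22, and the gene did not pass over all genes.

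Elk3, which acts as a repressor until it is phosphorylated, stood at 24.3, 22.6 and 21.0 FPKM in conditional knockout hearts and at 26.2, 28.8 and 26.2 FPKM in control hearts. The groups were separated by less than 2 FPKM, and the exonic overlap with Cdk17 named above bears on both. The mean was 16.3% lower, a log2 fold change of -0.25 ± 0.10 (SE, limma unadjusted p = 0.0384, adjusted p = 0.742).

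Within each divergent pair, the 2 neighbours were set against each other library by library, a comparison chosen after the values were seen and given without a test. The ratio of Ets1 to Fli1 was 2.12, 2.53 and 2.60 in conditional knockout hearts and 3.35, 3.17 and 3.15 in control hearts, with no overlap. The ratio of Ets2 to Erg was 2.80, 2.78 and 2.37 in conditional knockout hearts and 2.73, 3.34 and 4.02 in control hearts, where control replicate 1 fell among the conditional knockouts. The ETS gene of the Ets subfamily thus had the lower fold change of each pair, with overlap in the second.

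Gata2 had the lowest fold change of the 9 and ranked number 65 of 12988 by p-value. It stood at 3.83, 3.54 and 2.89 FPKM in conditional knockout hearts and at 5.99, 5.51 and 5.47 FPKM in control hearts. The gap between the groups was larger than the range within either. The mean was 3.42 ± 0.483 FPKM in conditional knockouts and 5.66 ± 0.292 FPKM in controls (SD, n = 3 each), 39.5% lower, with a log2 fold change of -0.60 ± 0.12 (SE, 95% interval from -0.87 to -0.32, limma unadjusted p = 0.00117, adjusted p = 0.233). At this level the added 1 FPKM compresses the change, and with a pseudocount of 0.1 the log2 fold change was -0.72.

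Tal1 stood at 14.3, 20.97 and 18.8 FPKM in conditional knockout hearts and at 22.9, 21.9 and 17.3 FPKM in control hearts, so that the lowest control lay below 2 of the 3 conditional knockouts. This gave a log2 fold change of -0.20 ± 0.17 (SE, 95% interval from -0.59 to 0.19, limma adjusted p = 0.824). Within replicates 2 and 3 alone, in which both groups hold 2 libraries, it was 0.03, on the other side of 0.

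Lmo2 stood at 11.6, 14.6 and 10.7 FPKM in conditional knockout hearts and at 16.8, 13.8 and 12.4 FPKM in control hearts. The groups overlapped, with conditional knockout replicate 2 above 2 of the 3 controls. This gave a log2 fold change of -0.21 ± 0.15 (SE, limma adjusted p = 0.815), and -0.09 without control replicate 1, the highest library.

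Tal1 and Lmo2 are also genes of red cell precursors, and a whole heart contains blood. Among 15 erythroid markers, 10 that are not globins summed to 309.8, 552.7 and 422.4 FPKM in conditional knockout hearts and to 454.6, 568.8 and 374.0 FPKM in control hearts, and 9 of these 10 had a fold change below 0 (median -0.20, 0 called by limma). Gata1, the partner of Tal1 in red cells, stood at 9.65, 14.2 and 8.89 FPKM in conditional knockout hearts and at 15.7, 12.1 and 7.75 FPKM in control hearts. Conditional knockout replicate 1 was lowest of its group for both the erythroid sum and Tal1, and control replicate 3 was lowest of its group for the erythroid sum, Gata1, Tal1 and Lmo2. Conditional knockout replicate 2 was highest of its group for the erythroid sum, Gata1, Tal1 and Lmo2. The remaining libraries did not line up in full. Conditional knockout replicate 3 was lowest of its group for Lmo2 and Gata1 but not for the erythroid sum. Control replicate 1 was highest of its group for Tal1, Lmo2 and Gata1, while control replicate 2 had the highest erythroid sum. With the mean of these markers as a covariate, the log2 fold change was -0.10 for Tal1 and -0.15 for Lmo2 (limma adjusted p = 0.984 each), and it was -0.60 for Gata2. The embryonic globin genes Hba-x and Hbb-y were listed at 0 in all 3 controls and between 11129 and 23965 FPKM in the conditional knockouts, and since an exact 0 here can be a failed estimate, they were left out of that sum. Limma called both higher, the only calls among the 15 erythroid markers.

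Hhex stood at 5.005, 6.54 and 5.48 FPKM in conditional knockout hearts and at 4.27, 5.61 and 5.27 FPKM in control hearts. The groups overlapped, and replicate 1 was the lowest library of both. Each conditional knockout lay above the control of the same replicate number. This gave a log2 fold change of 0.14 ± 0.13 (SE, limma adjusted p = 0.843, 95% interval from -0.17 to 0.45), and 0.05 without either control replicate 1 or conditional knockout replicate 2. Hepatocytes also make Hhex, and liver RNA varied between these libraries: the 8 hepatocyte markers summed to 10.04, 264 and 4.45 FPKM in conditional knockout hearts and to 101, 26.9 and 33.1 FPKM in control hearts. Conditional knockout replicate 2 was highest for both, while control replicate 1 was lowest for Hhex and highest of its group for the liver sum, and the part of liver RNA in its Hhex value was not tested.

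**Figure D2:**
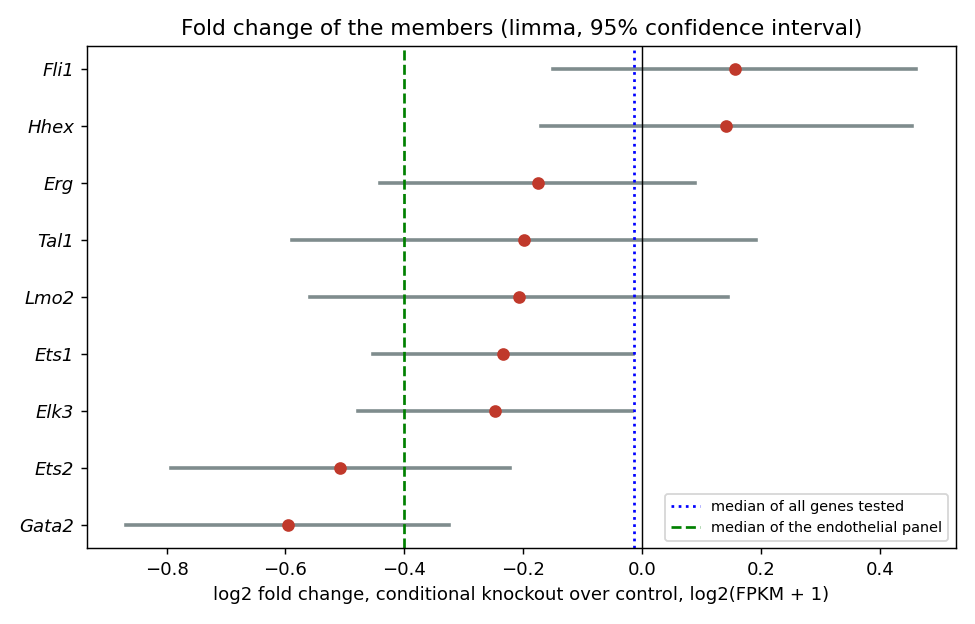
Log2 fold change (conditional knockout over control, on log2(FPKM + 1)) of the 9 regulators with limma's 95% confidence interval, ordered from high to low. Fli1 and Hhex lie above 0, the intervals of Ets1, Elk3, Ets2 and Gata2 lie below 0, and the dashed line marks the median of the endothelial panel at -0.40.

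The regulators were then set beside a panel of endothelial genes. In a whole heart, fewer endothelial cells and less RNA per cell cannot be told apart. The panel of 15 genes (among them Cdh5, the cadherin of endothelial junctions, Eng, a co-receptor for BMP ligands, and Ramp2, a subunit of the adrenomedullin receptor) had a median log2 fold change of -0.40, with 13 of 15 below 0 and 0 past the limma threshold. At an unadjusted p under 0.05, 10 were lower (4.37% of all genes), and 11 had separated libraries (8.17% of all genes). The 5 that did not reach that p were Egfl7, Clec14a, Cd34, Emcn and Cldn5, with log2 fold changes of -0.28, -0.12, -0.10, 0.08 and 0.43. Cdh5 was at 30.4 ± 3.35 FPKM in conditional knockouts and 50.3 ± 5.95 FPKM in controls, Eng at 47.9 ± 7.03 FPKM in conditional knockouts and 71.0 ± 10.3 FPKM in controls, and Ramp2 at 58.4 ± 6.64 FPKM in conditional knockouts and 102 ± 16.7 FPKM in controls (SD, n = 3 each).

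Each regulator was expressed relative to this panel, as its log2(FPKM + 1) minus the mean of the 15 genes in the same library. The panel mean itself was 4.46, 4.52 and 4.37 in conditional knockout hearts and 4.79, 4.84 and 4.74 in control hearts, a difference of -0.34. With 3 libraries against 3 the smallest two-sided p that an exact permutation test can give is 0.1, so none of these comparisons could pass. Because the panel itself was lower, a regulator of equal level in both groups would stand 0.34 higher in conditional knockouts by this measure. The share of all genes separated in this way was not computed.

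Fli1 relative to the panel was at -0.97, -1.43 and -1.30 in conditional knockout hearts and at -1.76, -1.79 and -1.65 in control hearts. All 3 conditional knockouts lay higher, with a mean difference of 0.50 (exact permutation p = 0.1, the smallest possible), and without conditional knockout replicate 1 the difference was 0.37. Hhex was at -1.87, -1.61 and -1.67 in conditional knockout hearts and at -2.40, -2.11 and -2.09 in control hearts. It too was higher in 3 of 3 libraries, by 0.48 (exact permutation p = 0.1). In FPKM, without the panel, both Fli1 and Hhex overlapped between the groups. Gata2 was at -2.19, -2.34 and -2.41 in conditional knockout hearts and at -1.99, -2.14 and -2.05 in control hearts. It remained lower in 3 of 3 libraries, by -0.25 (exact permutation p = 0.1).

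The other 6 overlapped between genotypes once set against the panel. Their mean differences were 0.17 for Erg, 0.11 for Ets1, 0.09 for Elk3, 0.14 for Tal1 and 0.14 for Lmo2, and -0.17 for Ets2, with exact permutation p-values of 0.2 to 0.5. Ets1 and Elk3, which were separated in FPKM, were therefore no longer separated relative to the panel. Ets2 overlapped because control replicate 1, at -0.26, lay beside the conditional knockouts at -0.27, -0.18 and -0.14. Between libraries of the same replicate number, Ets2 was lower in the conditional knockout in 3 of 3 pairs (-0.01, -0.22 and -0.26) and Ets1 was higher in 3 of 3 (0.18, 0.05 and 0.09), while Erg, Elk3, Tal1 and Lmo2 were higher in 2 of 3. With 3 pairs this was not tested. In each of the 9, the sign of the difference was the same with the panel summed, with the 10 panel genes known as Erg or Fli1 targets removed, and without any 1 library, but the sizes were not stable. Over these 8 alternatives the difference ran from 0.05 to 0.30 for Tal1 (without control replicate 3 and without conditional knockout replicate 1) and from 0.05 to 0.25 for Lmo2 (without conditional knockout replicate 2 and without control replicate 1). It ran from 0.07 (without conditional knockout replicate 3) to 0.25 for Erg, and from 0.06 to 0.20 for Ets1 and 0.05 to 0.18 for Elk3, both lowest without conditional knockout replicate 1. Ets2 ran from -0.28, without control replicate 1, to -0.08. The ranges of the separated genes were 0.37 to 0.60 for Fli1, 0.39 to 0.57 for Hhex and -0.32 to -0.17 for Gata2.

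**Figure D3:**
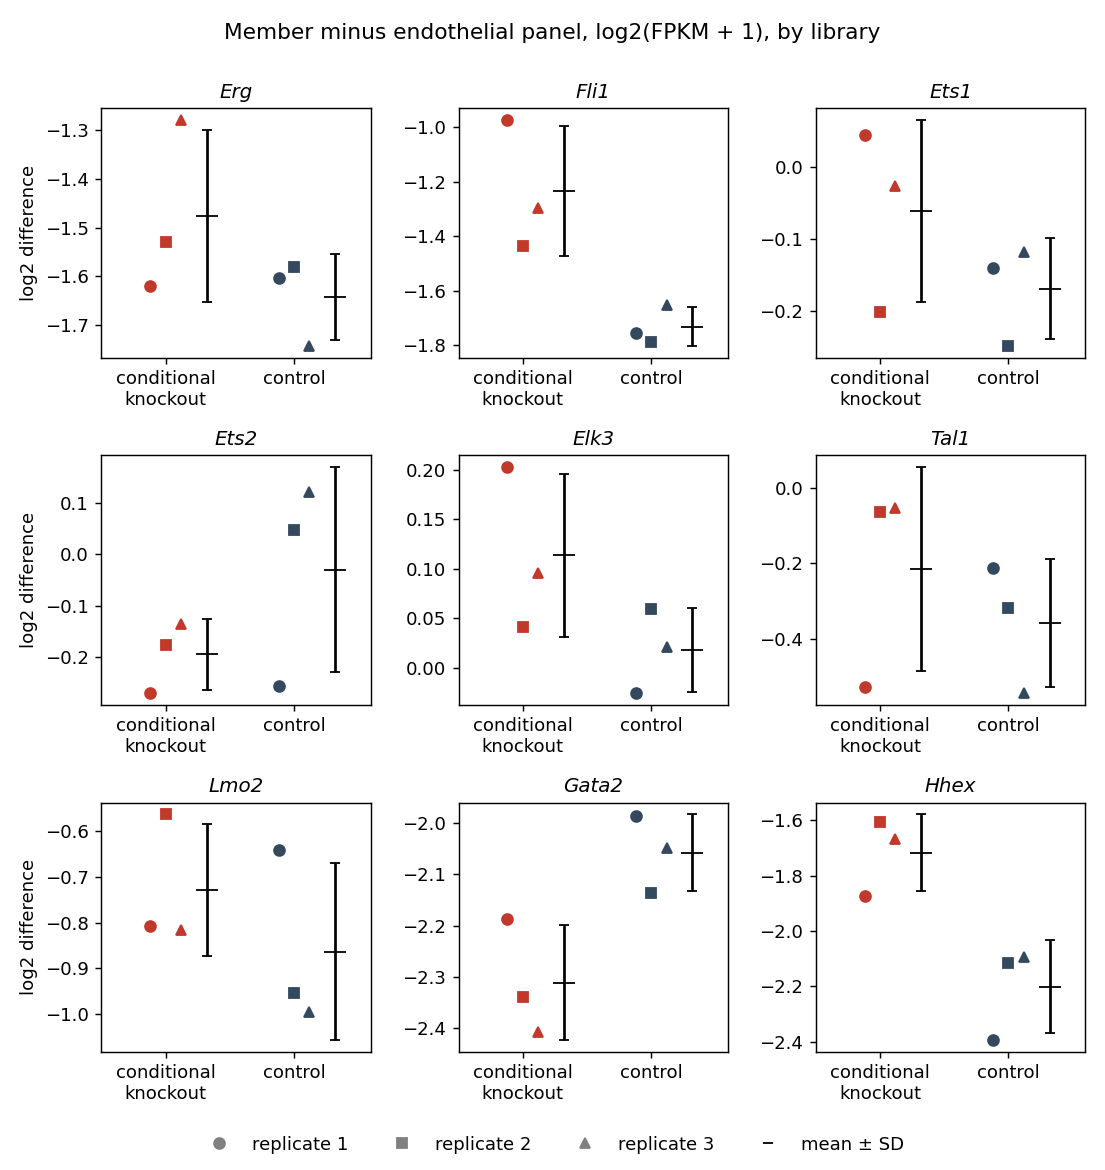
Level of each regulator relative to the endothelial panel (log2(FPKM + 1) of the gene minus the mean of the 15 panel genes) by library, with conditional knockout hearts in red to the left of control hearts in dark blue and the mean ± SD (n = 3) beside each group. Each axis has its own range, Fli1 and Hhex lie above the controls and Gata2 below them in all 3 libraries, and the other 6 overlap. The panel mean itself was lower in conditional knockout hearts.

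Genes that Erg or Fli1 are known to regulate in endothelium lay mostly below 0, with some above. Of 22 such genes, Mmrn2, a matrix glycoprotein gene of endothelial cells, fell to 6.67 ± 0.508 FPKM in conditional knockouts, against 14.3 ± 1.15 FPKM in controls (SD, n = 3 each; log2 fold change -0.99 ± 0.10 SE, limma adjusted p = 0.0171), and 21 did not pass. The call of Mmrn2 ended with an adjusted p of 0.0652 with no filter on low values, 0.0739 with the erythroid covariate, and 0.0644 to 0.135 without any 1 library other than control replicate 1. Its log2 fold change ranged from -1.09 to -0.94 over these and the other alternatives. The median was -0.33, with 16 below 0 and 6 above. At an unadjusted p under 0.05, 12 were lower (4.37% of all genes) and 2 higher (2.31% of all genes). The 2 higher were Robo4 and Aplnr, with log2 fold changes of 0.74 and 0.50. Every conditional knockout library lay below every control in 14 of the 22 (8.17% of all genes) and above in 2 (5.23% of all genes). This list shares 10 genes with the endothelial panel, so the pair is not independent.

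The other ETS genes showed no such spread. Of 22 further family members 13 were tested and 0 passed, with a median of -0.05, 9 below 0 and 4 above. Gabpa and Elf2, both broadly expressed, were the most abundant, at 41.5 ± 8.25 and 30.3 ± 1.76 FPKM in conditional knockouts and 34.9 ± 2.78 and 30.7 ± 0.676 FPKM in controls (SD, n = 3 each). Spi1, which encodes PU.1 of myeloid cells, was the 1 of these 13 with an unadjusted p under 0.05, and it was higher (2.31% of all genes). It stood at 2.23, 2.96 and 2.28 FPKM in conditional knockout hearts and at 0.963, 1.22 and 1.27 FPKM in control hearts, without overlap (log2 fold change 0.69 ± 0.15 SE, limma adjusted p = 0.278). Of the 13, 2 had every conditional knockout library above every control (5.23% of all genes), Spi1 and Elf1. Elf1 stood at 8.45, 9.12 and 8.44 FPKM in conditional knockout hearts and at 7.33, 8.29 and 8.36 FPKM in control hearts. Etv2, which specifies endothelium earlier in development, did not reach the filter, with a highest value of 1.86 FPKM.

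A list of partners and relatives of Tal1, Lmo2 and Gata2 included Lyl1, a basic helix-loop-helix gene with a lower fold change than Tal1. The list mixes members of the complex with relatives of the regulators, such as Lyl1 and Gata5. Of these 18 genes 16 were tested and 0 passed, with a median of -0.05 and 10 below 0. At an unadjusted p under 0.05, 3 were lower (4.37% of all genes), Lyl1, Cbfa2t3 and Gata5. Lyl1, the closest relative of Tal1, stood at 5.09, 6.94 and 4.67 FPKM in conditional knockout hearts and at 10.5, 10.8 and 8.33 FPKM in control hearts. All 3 conditional knockouts lay below every control (log2 fold change -0.74 ± 0.16 SE, limma adjusted p = 0.294). Cbfa2t3, a corepressor that joins the complex, stood at 2.78, 3.74 and 2.92 FPKM in conditional knockout hearts and at 4.13, 6.09 and 4.97 FPKM in control hearts, again without overlap (log2 fold change -0.54 ± 0.15 SE, limma adjusted p = 0.559). Gata5, a GATA factor of the endocardium, stood at 12.8, 16.3 and 14.7 FPKM in conditional knockout hearts and at 21.2, 19.0 and 16.8 FPKM in control hearts, without overlap (log2 fold change -0.36 ± 0.13 SE, limma adjusted p = 0.716). The adaptor genes showed no such gap: Ldb1 was at 76.1 ± 2.94 FPKM in conditional knockouts and 75.9 ± 14.0 FPKM in controls, and Ssbp3 at 86.0 ± 8.11 FPKM in conditional knockouts and 82.5 ± 1.40 FPKM in controls (SD, n = 3 each). Gata4, the cardiac GATA factor and the most abundant of the list, was at 117 ± 18.6 FPKM in conditional knockouts and 128 ± 1.79 FPKM in controls. Of the 16, 3 thus had every conditional knockout library below every control (8.17% of all genes) and 1 had every one above (5.23% of all genes). The latter was Tcf4, at 13.9, 12.7 and 12.9 FPKM in conditional knockout hearts and at 9.08, 12.5 and 11.4 FPKM in control hearts (limma adjusted p = 0.776).

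**Figure D4:**
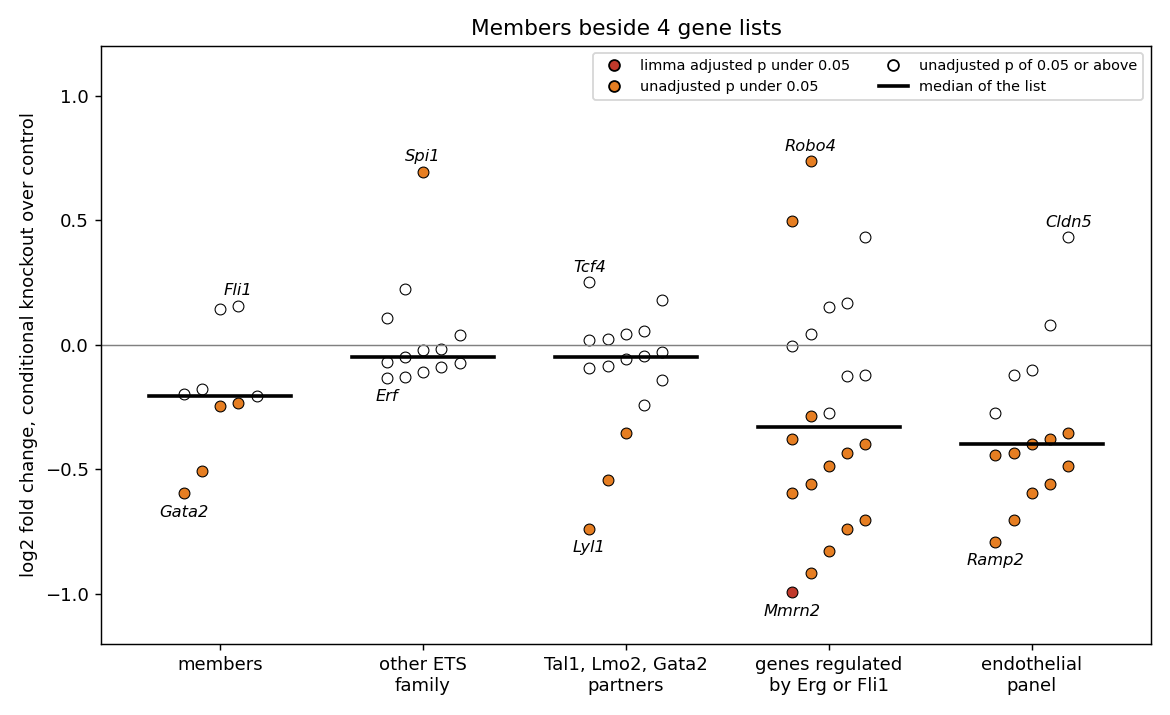
Log2 fold change (conditional knockout over control) of each tested gene in the 9 regulators and 4 gene lists, with a bar at the median of each list and the lowest and highest gene named. Mmrn2 is the only gene shown with a limma adjusted p under 0.05, and the medians are -0.21, -0.05, -0.05, -0.33 and -0.40 from left to right.

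Markers of further blood cells were set beside these results. Of 8 megakaryocyte markers tested, in a lineage that uses Fli1, Erg and Gata2, 8 lay below 0 and 0 passed (median -0.23). Their sum was 36.6, 49.6 and 27.4 FPKM in conditional knockout hearts and 39.97, 44.8 and 50.4 FPKM in control hearts, with overlap. Of 10 macrophage and leukocyte markers tested, 9 lay above 0 and 0 passed (median 0.20), with sums of 43.7 to 50.9 FPKM in conditional knockouts and 44.95 to 53.3 FPKM in controls. At an unadjusted p under 0.05, 3 were higher (2.31% of all genes) and 1 lower (4.37% of all genes). Of the 10, 4 (Spi1, C1qa, C1qb and Csf1r) had every conditional knockout library above every control (5.23% of all genes). For 1, Lyz2, every conditional knockout library lay below every control (8.17% of all genes). Spi1 is also counted among the ETS genes. Lyz2, at 15.1 ± 0.818 FPKM in conditional knockouts and 22.6 ± 3.57 FPKM in controls, was the 1 lower gene and the most abundant of the list, the largest share of those sums, and the pan-leukocyte gene Ptprc did not exceed 0.538 FPKM in any library. The 7 cardiomyocyte markers had a median of -0.18 and the 7 hepatocyte markers tested one of -0.08, with 0 past the threshold in both. The part of blood cells in the levels of the regulators was not tested beyond the covariate given above.

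Genes whose profile over the 6 libraries was most like that of a regulator were sought for the 3 with the widest range, Gata2, Ets2 and Tal1, by the root mean square difference of centred log2(FPKM + 1). For Gata2 they were Avpi1, Tnfrsf1b and Plxnd1, an endothelial semaphorin receptor gene, at 0.063, 0.066 and 0.072, and 8 genes in all lay within 0.1. For Ets2 they were the fibronectin gene Fn1, Apcdd1 and Arap3, at 0.064, 0.065 and 0.068, with 25 genes within 0.1. For Tal1 they were Fth1, Tnni1 and Manf, at 0.054, 0.058 and 0.060, with 63 genes within 0.1. With 6 libraries in 2 groups many genes are alike by this measure.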

How the data were processed

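RNA was extracted with Trizol from whole hearts and made into libraries with an Illumina TruSeq kit, per the labels' protocols. The authors deposited FPKM values, which scale fragments by transcript length and library total. TopHat2 2.0.9, Cufflinks 2.2.1, Cuffdiff, HTSeq and the build mm10 are named without a role, per the submitters' processing notes. The table gives no read counts, so depth is unknown and no counting interval can be given, and values carry only the SD over 3 libraries.

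Of 38918 genes, the 12988 that averaged 1 FPKM or more were analysed on the log2(FPKM + 1) scale with limma 3.58.1 in R 4.3.3 (intensity trend, no block) and Benjamini-Hochberg adjustment over all genes, threshold 0.05. Data were simulated for 12988 genes with the SDs of these libraries and independent noise, and changes were put only into genes above the lowest levels. The fit recovered 22.4%, 65.7% and 98.5% of the 67, 67 and 66 genes changed by 0.5, 1 and 2 on the log2 scale, with 6 false calls. Changes of 0.5 were thus mostly missed there. The lowest genes and libraries linked by replicate number were not simulated. Fold changes are conditional knockout over control.

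The genes, lists, endothelial panel and the rule for named genes (every gene of a list past the threshold, otherwise the most abundant and most changed) were chosen with earlier results of these data known. Genes named outside that rule, and both paired ratios, were chosen after values were seen. Positions come from GENCODE M21 on GRCm38, the assembly behind mm10, which held 37607 of the identifiers. Deviations from the group means correlated at 0.27, 0.11 and 0.44 between libraries of the same replicate number (12805 genes above 0 in every library). Between libraries of different numbers the correlations ran from -0.39 to 0.095, close to the 0.11 of replicate 2. Part of this contrast is built in, because deviations from a group mean cancel within the group. The numbers may pair the libraries, which these correlations cannot settle, but the reported fit and the permutation tests did not use the numbers. The block was an alternative.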

Additional observations from a re-analysis of the deposited data

How the results depend on the processing

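The count of regulators past the threshold was 0 in the reported analysis and in all 16 alternatives. Of these, 15 were planned and 1, the erythroid covariate, was chosen after seeing the data, as was the panel without Erg or Fli1 targets, which applies to the panel-relative values alone. Gata2 had a log2 fold change between -0.72 and -0.51 (adjusted p from 0.176 to 0.874) over 15 alternatives, since a minimum mean of 5 FPKM leaves it out, and Ets2 one between -0.62 and -0.45 (0.136 to 0.9999) over 16. Erg, Fli1, Ets1, Elk3, Lmo2 and Hhex kept their sign in all 16, and Tal1 in 15: within replicates 2 and 3 it was 0.0255 (adjusted p = 0.949), and the cause was not tested. Over all genes, 16 lower and 7 higher calls became 11 and 6 with the replicate block, which changed no call among the regulators. The lowest limma adjusted p of the regulators with the block were 0.207 for Gata2, 0.216 for Ets2, 0.377 for Ets1 and 0.384 for Elk3. The lower count was 7 with no filter on low values, 8 within replicates 2 and 3, 4 with the erythroid covariate, and 4 to 9 without any 1 library (leaving out a control gave 9, 4 and 6 in replicate order, and leaving out a conditional knockout gave 6, 6 and 4), and the higher count was 6 to 11 without any 1 library, with 11 without conditional knockout replicate 2. Tek missed the threshold within replicates 2 and 3 (log2 fold change -2.39, adjusted p = 0.05465) and passed in every other alternative. The median log2 fold change of all genes lay between -0.05 and 0.004 over the alternatives. Read depth is unknown, so its part in these limits cannot be given.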
